A study of Mus musculus with 12 samples.

Results

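The nuclear genes for the subunits of the 5 oxidative phosphorylation complexes were followed through the kidney cortex of mice with glomerulonephritis (GN) and of control mice. Members were all gene symbols of the deposited count table that begin with Ndufa, Ndufb, Ndufc, Ndufs or Ndufv and a number, with Uqcr, with Atp5, or with Cox and a digit of 4 to 8 and a letter, together with Sdha, Sdhb, Sdhc and Sdhd. This rule found 84 of 24452 symbols. Of these, 73 encode subunits that most tissues use, here called complex members: 35 in complex I, 4 in complex II, 8 in complex III, 11 in complex IV (with Ndufa4, which is known as a complex IV subunit despite its name) and 15 in complex V. Another 8 are tissue-restricted isoforms or paralogs, and 3 encode proteins that associate with the complexes. The filter on low counts passed 82 members, including all 73 complex members. The 2 that did not pass, Cox7b2 and Cox8c, are isoforms known from testis and had a count of 0 in every library, which allows no more than 0.131 CPM in the deepest library and 0.212 CPM in the shallowest (3 counts per library, for counting error only).

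Stranded mRNA sequencing had been run on 12 libraries of kidney cortex from C57BL/6 mice, all labelled adult and male, with 3 libraries in each of 4 groups. In the GN_captopril group and the GN_water group, GN had been induced over 6 weeks by intraperitoneal horse spleen apoferritin (10 mg, 5 times a week), a foreign protein that forms immune complexes, with 100 micrograms of lipopolysaccharide 3 times a week as adjuvant. The Control_captopril group and the Control_water group had saline injections instead, and tissue from all groups was taken at week 9. The captopril groups were given captopril, an inhibitor of angiotensin-converting enzyme, at a dose that the labels do not state, and the water groups were given water. Each library title holds a pair of numbers, which leaves unsaid if it came from 1 mouse or from a pool, so that p-values measure only the spread between these libraries.

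Oxidative phosphorylation takes electrons from NADH at complex I and from succinate at complex II, passes them through coenzyme Q, complex III and cytochrome c to oxygen at complex IV, and uses the proton gradient so built to make ATP at complex V. Complex II is also the enzyme of the tricarboxylic acid cycle that oxidises succinate, and it alone has only nuclear-encoded subunits. Complexes I, III, IV and V combine nuclear subunits with a few encoded in mitochondrial DNA, which were not analysed here. The proximal tubule and the thick ascending limb are packed with mitochondria and pay for solute transport with this ATP.

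Before any comparison, the libraries stood apart in a way that the labels do not give. Xist, transcribed from the inactive X of females, was at 181 to 212 CPM in GN_water and 314 to 375 in Control_captopril, but at most 0.0718 in GN_captopril and 0.182 in Control_water, while the Y-linked gene Ddx3y was at 46.8 to 49.9 CPM in GN_captopril and 39.8 to 48.2 in Control_water, and at most 0.0506 in the other groups. Kap, an androgen-regulated proximal tubule transcript, reached 27151 to 29782 CPM in GN_captopril and 25952 to 33891 in Control_water, against 5206 to 8917 in GN_water and 7433 to 9909 in Control_captopril. Ren1 (renin), which ACE inhibition is known to raise, was at 438 to 691 CPM in GN_captopril against 20.8 to 30.2 in GN_water, but at 63.4 to 82.8 in Control_captopril against 1083 to 1794 in Control_water, so in controls it did not follow the captopril label. All group names below are therefore the labels as given. GN averaged over both treatment labels sets 1 group of each marker type on each side. GN_water against Control_captopril and GN_captopril against Control_water compare libraries with like markers, but each also changes the treatment label. The interaction of disease and treatment labels is the same contrast as the Y-linked groups minus the Xist groups, and the 2 readings cannot be told apart. Library totals ran from 14173414 to 22842776 counts. Transcripts of the adrenal cortex were high in replicate 3 of GN_captopril and of Control_captopril (10 markers summed to 152 and 400 CPM, the highest of their groups, where the lowest libraries had 22.2 and 22.1).

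In GN kidneys averaged over both treatment labels, 29 of the 82 members tested were lower than in controls and 0 were higher (edgeR quasi-likelihood test, adjusted p under 0.05). Over all 14618 genes tested, 14.6% were lower and 16.3% higher (30.9% either way). Called members came from every complex: 14 of 35 members of complex I, 4 of 4 of complex II, 4 of 8 of complex III, 3 of 11 of complex IV and 3 of 15 of complex V were lower, and the other was the associated protein Atp5sl. The differences were small. The median log2 fold change was -0.16 in complex II, -0.12 in complex III, -0.11 in complex I, -0.10 in complex V and -0.09 in complex IV, against -0.01 over all genes tested. In bulk tissue, fewer cells of a type and less RNA per cell cannot be told apart. Proximal tubule markers were lower in the same average for 9 of 18 (median -0.17), distal tubule and thick ascending limb markers for 9 of 12 (median -0.40), and leukocyte markers were higher for 15 of 16 (median 1.90). The proximal tubule list summed to 59147 to 59918 CPM in GN_captopril and 24345 to 29813 in GN_water, against 30640.0 to 33786 in Control_captopril and 61542 to 67475 in Control_water. The distal list summed to 5239 to 6123 CPM in GN_captopril and 8344 to 9319.9 in GN_water, against 9814 to 11427 in Control_captopril and 6346 to 7999 in Control_water. The part of these cells in the members' differences was not tested.

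The count depends on how libraries are put on 1 scale, because most of these differences are near 0.1 on the log2 scale. With library totals alone in place of TMM factors, 9 members were lower, and with upper quartile scaling 16. The complex members' median lay at -0.09 from that of all genes under TMM, library totals, upper quartile and DESeq2 size factors alike. A change of scaling shifts all genes by nearly the same amount, so this likeness was fixed in advance and is a description. Without Control_water replicate 1, 47 members were lower, and without Control_water replicate 2, 23. The members lower under each of 22 alternatives (other scalings, tools and filters, a replicate block, and each library left out) included Sdha, Sdhc, Ndufs1, Ndufa9, Cox6c and Atp5a1, which were singled out after their values were seen.

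**Figure D1:**
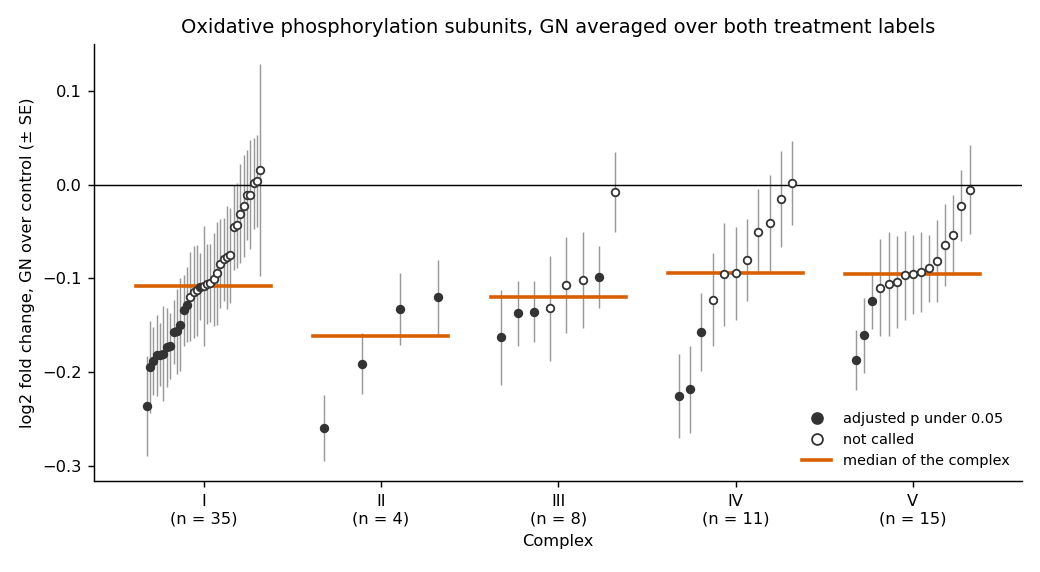
Log2 fold change of each complex member in GN over control kidneys, averaged over both treatment labels, with its SE. Each point is a gene, filled where the adjusted p was under 0.05, and orange lines mark the median of each complex, from -0.16 in complex II to -0.09 in complex IV.

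Summed over the 73 complex members, the level was 25597, 25308 and 26230.4 CPM in the GN_captopril libraries and 26681, 26189 and 27270.0 in GN_water, against 27957, 28429 and 28746 in Control_captopril and 27322, 30055 and 28568 in Control_water. With TMM factors, all 6 GN libraries lay below all 6 control libraries in this sum, the closest pair being GN_water replicate 3 and Control_water replicate 1. These factors were 1.07 to 1.08 in GN_water and 0.932 to 0.941 in Control_water. With library totals alone, the complex members' median in GN_water against Control_water was 0.15, against -0.05 with TMM factors. The sum was computed with TMM factors only, so the separation is shown for these factors and was not tested under others. CPM values of single genes below rest on the same factors.

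Complex I takes electrons from NADH. Among its catalytic core subunits, Ndufs1, the iron-sulphur subunit of the electron input module, was lower in GN. Ndufs1 measured 362, 346 and 348 CPM in GN_captopril and 300, 289.6 and 294 in GN_water, against 375, 352 and 352 CPM in Control_captopril and 392, 376 and 353 in Control_water. The GN_water libraries stood lowest, and the GN_captopril libraries overlapped both control groups. The log2 fold change of Ndufs1 in the GN average was -0.19 ± 0.04 (SE; adjusted p = 0.0017). Counts of Ndufs1 were not whole in 12 libraries, so its level carries the uncertainty described for Ndufs5 below.

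Ndufv1, the subunit that binds NADH and its flavin cofactor, was also lower, at -0.16 ± 0.03 (SE; adjusted p = 0.0035) on the log2 scale, although not with library totals alone (-0.08). Ndufv1 measured 383, 376 and 384 CPM in GN_captopril and 333, 313 and 329 in GN_water, against 350.5, 350.5 and 359 CPM in Control_captopril and 415, 447 and 448 in Control_water. Here the Control_water libraries were highest and the GN_water libraries lowest, with GN_captopril above Control_captopril. Ndufs7, which carries the last iron-sulphur cluster before quinone, had a log2 fold change of -0.13 ± 0.04 (SE; adjusted p = 0.017). Of the other core subunits, Ndufv2 had 0.00 ± 0.05 (SE; adjusted p = 0.99) and Ndufs8 -0.02 ± 0.05 (SE; adjusted p = 0.79), and neither was called.

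Accessory subunits of complex I were called as well. Ndufa1, an X-linked subunit of the membrane arm, had the lowest fold change of complex I at -0.24 ± 0.05 (SE; adjusted p = 0.0049). Ndufa1 measured 124, 121 and 146 CPM in GN_captopril and 118, 115 and 129 in GN_water, against 148, 138 and 131 CPM in Control_captopril and 151, 162 and 156 in Control_water. Both water and captopril controls were above GN_water, and GN_captopril replicate 3 overlapped the captopril controls. Ndufb8, a membrane arm subunit often used to follow complex I, was at -0.19 ± 0.05 (SE; adjusted p = 0.0093). Ndufb8 measured 304, 315 and 344 CPM in GN_captopril and 407, 373 and 422 in GN_water, against 426, 405 and 419 CPM in Control_captopril and 376, 440.2 and 395 in Control_water. All GN_captopril libraries lay below all others, while GN_water overlapped both control groups. Ndufa9, which sits where the 2 arms of the complex meet, was at -0.17 ± 0.03 (SE; adjusted p = 0.0024). Ndufa9 measured 226, 224 and 241 CPM in GN_captopril and 237, 224 and 230.2 in GN_water, against 256, 258 and 263 CPM in Control_captopril and 253, 272 and 256 in Control_water. All 6 GN libraries of Ndufa9 lay below all 6 control libraries. The other accessory subunits called lower were Ndufa2, Ndufa5, Ndufa10, Ndufa13, Ndufb3, Ndufb10 and Ndufb11, at -0.18 to -0.11. The calls of Ndufa2, Ndufb3 and Ndufb10 were lost when Control_water replicate 2, Control_water replicate 3 or GN_captopril replicate 2 was left out. Ndufs5 was measured at a mean of 10.2 CPM over all libraries, and its deposited counts were not whole in all 12, as when reads are divided between near-identical copies. The source of the fractions was not tested, and the level of Ndufs5 is uncertain.

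The promoters of Ndufa9 and Ndufv1 are shown because Ndufa9 was lower in GN under every alternative and Ndufv1 had the largest positive interaction of a complex member, described below. They are RefSeq windows on GRCm38.p6, from 250 bases before to 50 after the gene start, at chr6:126849095-126849394 (minus strand) and chr19:4012706-4013005 (minus strand). Capitals mark a match to the YY1 motif AAGATGGCG, which in Ndufa9 began 29 bases after the start. No match to the 4 motifs searched was found in the window of Ndufv1.
Ndufa9: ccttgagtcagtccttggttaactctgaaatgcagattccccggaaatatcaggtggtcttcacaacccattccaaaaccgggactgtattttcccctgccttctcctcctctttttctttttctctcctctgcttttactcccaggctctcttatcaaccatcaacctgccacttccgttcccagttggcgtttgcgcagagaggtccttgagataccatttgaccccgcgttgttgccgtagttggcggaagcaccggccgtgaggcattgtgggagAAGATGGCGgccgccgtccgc
Ndufv1: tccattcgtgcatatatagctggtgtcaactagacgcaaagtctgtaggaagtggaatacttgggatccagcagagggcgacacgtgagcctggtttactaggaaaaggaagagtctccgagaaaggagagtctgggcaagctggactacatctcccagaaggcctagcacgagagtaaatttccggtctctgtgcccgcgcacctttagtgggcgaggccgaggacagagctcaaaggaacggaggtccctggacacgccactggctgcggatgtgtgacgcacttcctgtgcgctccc

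All 4 subunits of complex II, succinate dehydrogenase, were lower in GN with TMM factors. Sdha and Sdhc kept their calls with library totals alone, while Sdhb and Sdhd did not (adjusted p = 0.27 and 0.42 by edgeR), and upper quartile scaling and limma on RPKM also called 2 of the 4. Sdha, the flavoprotein that oxidises succinate, had the lowest fold change of any complex member at -0.26 ± 0.04 (SE; adjusted p = 0.00012). Sdha measured 936, 895 and 887 CPM in GN_captopril and 863, 838 and 817 in GN_water, against 1077, 1062 and 1046 CPM in Control_captopril and 1079, 1024 and 979.8 in Control_water. All 6 GN libraries were below all 6 control libraries, with GN_water lowest. Sdhc, 1 of the 2 membrane anchors, was at -0.19 ± 0.03 (SE; adjusted p = 0.00069). Sdhc measured 360.5, 358 and 375 CPM in GN_captopril and 344, 333 and 334 in GN_water, against 403, 404 and 399.9 CPM in Control_captopril and 381, 409 and 405 in Control_water. No GN library reached the lowest control library, and GN_water was again below GN_captopril.

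Sdhb, the iron-sulphur subunit that passes electrons from the flavin towards coenzyme Q, was at -0.13 ± 0.04 (SE; adjusted p = 0.019). Sdhb measured 411, 414 and 426 CPM in GN_captopril and 411, 391 and 411 in GN_water, against 426, 424 and 442 CPM in Control_captopril and 434, 489 and 488 in Control_water. The GN libraries overlapped the captopril controls only at GN_captopril replicate 3, and Control_water replicates 2 and 3 stood above all others. Its call was lost without the 2 libraries that carry adrenal transcripts (adjusted p = 0.053 by edgeR). Sdhd, the other membrane anchor, was at -0.12 ± 0.04 (SE; adjusted p = 0.035). Sdhd measured 352, 369.8 and 389 CPM in GN_captopril and 364, 361 and 385 in GN_water, against 412, 409 and 409 CPM in Control_captopril and 369, 415 and 399 in Control_water. For Sdhd, Control_water replicate 1 lay among the GN libraries, and the call was lost when any of 7 single libraries was left out, among them Control_water replicate 2.

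**Figure D2:**
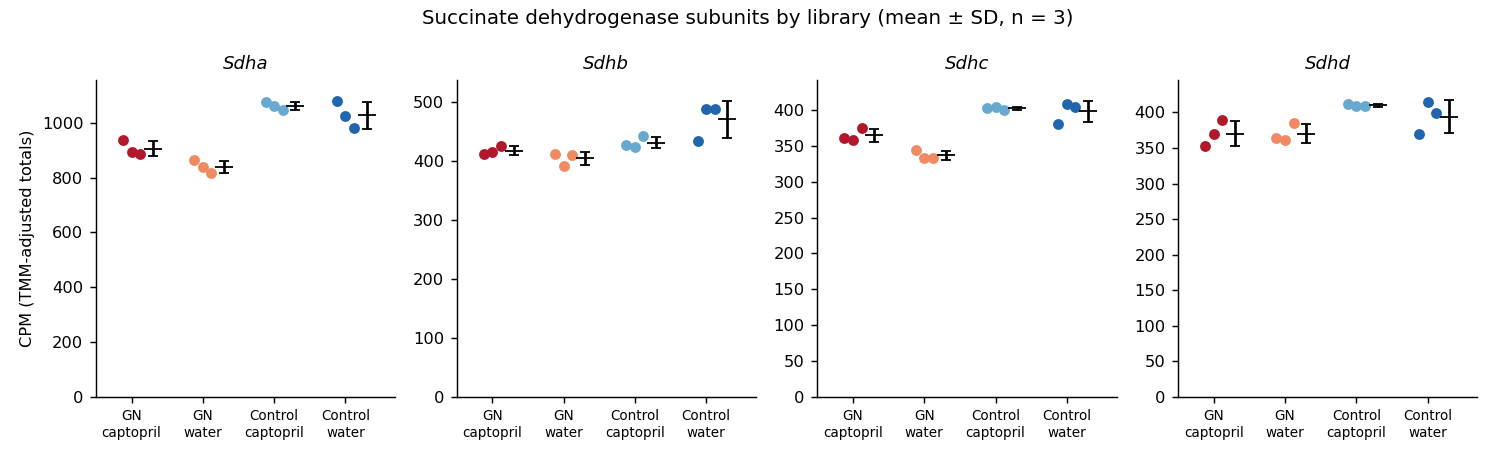
CPM of the 4 succinate dehydrogenase subunits in each library, with the mean and SD of each group (n = 3). For Sdha the GN libraries lie between 817 and 936 CPM, below the lowest control library at 979.8 CPM.

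The promoter windows of the complex II genes that the RefSeq table held are shown because all 4 members were called lower with TMM factors. They lie at chr13:74350191-74350490 (minus strand), chr4:140961021-140961320 (plus strand) and chr9:50603800-50604099 (minus strand) of GRCm38.p6. In Sdhb, capitals mark the NRF1 motif GCATGCGC, which began 54 bases before the start. In Sdhd they mark the motif TCAAGGTCA of the oestrogen-related receptor (ERR) family on the opposite strand, 36 bases after the start. The window of Sdha held no match to the 4 motifs.
Sdha: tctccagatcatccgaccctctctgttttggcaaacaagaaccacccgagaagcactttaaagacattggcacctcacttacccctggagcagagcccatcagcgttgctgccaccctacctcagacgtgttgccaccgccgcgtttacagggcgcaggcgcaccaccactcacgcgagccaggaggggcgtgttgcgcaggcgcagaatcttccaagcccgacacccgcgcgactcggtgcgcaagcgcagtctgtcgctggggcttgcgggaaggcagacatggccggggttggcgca
Sdhb: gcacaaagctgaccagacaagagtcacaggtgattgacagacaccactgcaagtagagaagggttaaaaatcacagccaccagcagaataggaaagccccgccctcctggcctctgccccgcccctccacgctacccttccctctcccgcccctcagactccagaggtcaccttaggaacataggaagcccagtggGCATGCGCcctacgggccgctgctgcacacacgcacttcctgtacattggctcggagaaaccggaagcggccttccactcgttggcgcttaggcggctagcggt
Sdhd: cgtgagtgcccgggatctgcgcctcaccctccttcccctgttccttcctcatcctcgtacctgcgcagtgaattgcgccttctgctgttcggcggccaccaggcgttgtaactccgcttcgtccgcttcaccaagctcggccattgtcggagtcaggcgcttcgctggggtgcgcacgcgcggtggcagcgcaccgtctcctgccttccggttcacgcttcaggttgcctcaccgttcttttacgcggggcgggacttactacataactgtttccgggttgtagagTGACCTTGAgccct

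Complex III hands electrons from coenzyme Q to cytochrome c. Uqcrfs1, the Rieske iron-sulphur protein at its catalytic centre, was lower in GN at -0.14 ± 0.03 (SE; adjusted p = 0.0091). Uqcrfs1 measured 367, 401 and 397 CPM in GN_captopril and 340.3, 345 and 353 in GN_water, against 403, 391 and 395 CPM in Control_captopril and 400.2, 422 and 407 in Control_water. The GN_water libraries stood alone at the low end, and GN_captopril overlapped both control groups. The core proteins Uqcrc1 and Uqcrc2 were at -0.14 ± 0.03 (SE; adjusted p = 0.0068) and -0.10 ± 0.03 (SE; adjusted p = 0.039). Uqcrc1 measured 523, 525 and 522 CPM in GN_captopril and 521, 512 and 501 in GN_water, against 539.7, 561 and 563 CPM in Control_captopril and 561, 607 and 579 in Control_water. No GN library reached the lowest control library of Uqcrc1. The call of Uqcrc2 was lost without any 1 Control_captopril library, without Control_water replicate 2 or 3, or without GN_captopril replicate 2. Uqcr11, a small subunit, was at -0.16 ± 0.05 (SE; adjusted p = 0.026). None of these 4 was called with library totals alone. The count of 4 was 7 without Control_water replicate 1 and 2 without Control_water replicate 2, without GN_captopril replicate 2, or without replicate 2 or 3 of Control_captopril. Among the members not called, Uqcrb, the quinone-binding protein, was at -0.01 ± 0.04 (SE; adjusted p = 0.91) and Uqcrq at -0.10 ± 0.05 (SE; adjusted p = 0.15).

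Complex IV reduces oxygen to water, and its nuclear subunits surround a mitochondrially encoded core. Cox6c and Cox7c, small membrane subunits, and Cox4i1, the large nuclear subunit that binds ATP, were lower in GN. Cox6c measured 318, 296 and 343 CPM in GN_captopril and 398, 382 and 408 in GN_water, against 441, 454 and 471 CPM in Control_captopril and 356, 404 and 378 in Control_water. The Control_captopril libraries were highest and the GN_captopril libraries lowest, and GN_water overlapped Control_water. The log2 fold change of Cox6c was -0.23 ± 0.05 (SE; adjusted p = 0.0022). Cox7c measured 250.7, 237 and 276 CPM in GN_captopril and 275, 267 and 301 in GN_water, against 324, 315 and 308 CPM in Control_captopril and 298, 325 and 298 in Control_water. For Cox7c, only GN_water replicate 3 reached above the lowest control library, and the log2 fold change was -0.22 ± 0.05 (SE; adjusted p = 0.0032). Cox4i1 was at -0.16 ± 0.04 (SE; adjusted p = 0.012), and not called with library totals alone. The count of 3 was 5 without Control_water replicate 1 or GN_water replicate 3. The nuclear subunits Cox5a, Cox6b1 and Ndufa4 were not called, at 0.00 ± 0.04 (SE; adjusted p = 0.99), -0.08 ± 0.04 (SE; adjusted p = 0.19) and -0.10 ± 0.06 (SE; adjusted p = 0.21). Cox8a was at -0.02 ± 0.05 (SE; adjusted p = 0.85).

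Complex V, ATP synthase, had its called members in the catalytic head. Atp5a1 and Atp5b, the alpha and beta subunits whose sites form ATP, and Atp5c1, the gamma subunit that turns within the head, were lower in GN. Atp5a1 measured 2387, 2284 and 2278 CPM in GN_captopril and 2417, 2277 and 2338 in GN_water, against 2734, 2662 and 2639 CPM in Control_captopril and 2661, 2637 and 2589.8 in Control_water. No GN library of Atp5a1 reached the lowest control library, and the log2 fold change was -0.19 ± 0.03 (SE; adjusted p = 0.00068). Atp5b measured 3571, 3478 and 3373 CPM in GN_captopril and 3285, 3234 and 3218 in GN_water, against 3497, 3531 and 3593 CPM in Control_captopril and 3766, 3821 and 3760.2 in Control_water. Atp5b was highest in Control_water and lowest in GN_water, GN_captopril overlapped Control_captopril, and the log2 fold change was -0.12 ± 0.03 (SE; adjusted p = 0.0077). Its call was lost with library totals alone (adjusted p = 0.21 by edgeR), with upper quartile scaling (0.052) and without the 2 libraries that carry adrenal transcripts (0.056). Atp5c1 was at -0.16 ± 0.04 (SE; adjusted p = 0.0086), and not called with library totals alone. The count of 3 was 8 without Control_water replicate 1 and 5 without GN_water replicate 3. The genes Atp5g1, Atp5g2 and Atp5g3, which encode the same mature subunit c of the rotor ring, were not called in this average, at -0.01 ± 0.05 (SE; adjusted p = 0.95), -0.05 ± 0.04 (SE; adjusted p = 0.37) and -0.02 ± 0.04 (SE; adjusted p = 0.7). Of the associated proteins, Atp5sl was at -0.17 ± 0.05 (SE; adjusted p = 0.012) and not called with library totals alone. Its RefSeq symbol is Dmac2, and despite its older name it was not counted in complex V. Atp5s, a coupling factor, was at -0.07 ± 0.08 (SE; adjusted p = 0.51), and Cox7a2l, which takes part in joining complexes into supercomplexes, at -0.11 ± 0.05 (SE; adjusted p = 0.094).

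The 2 comparisons of libraries with like sex-linked markers share no library, and so give separate readings of GN. In GN_water against Control_captopril, 12 members (14.6% of those tested) were lower and 0 higher. Over all genes tested, 13.2% were lower and 16.9% higher (30.1% either way), so the members' lower share was near that of all genes. In GN_captopril against Control_water, 17 (20.7%) were lower and 0 higher, where 5.02% of all genes were lower and 7.05% higher (12.1% either way). Of the 73 complex members, 53 had a fold change below 0 in the first and 72 in the second, and 52 (71.2%) were below 0 in both, against 33.5% of all genes tested. Complex medians in GN_water against Control_captopril were -0.20 in complex II, -0.09 in complex III, -0.06 in complex IV, -0.05 in complex I and -0.04 in complex V. In GN_captopril against Control_water they were -0.18 in complex IV, -0.17 in complex III, -0.16 in complex I, -0.15 in complex II and -0.12 in complex V.

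The complex members lower in both comparisons, 5 of the 11 lower in the first and 5 of the 17 lower in the second, included Sdha, Ndufa9, Cox6c and Atp5a1. Sdha was at -0.34 ± 0.05 (SE; adjusted p = 0.00023) in GN_water against Control_captopril and at -0.18 ± 0.05 (SE; adjusted p = 0.032) in GN_captopril against Control_water. Cox6c was at -0.20 and -0.25 in the same order, and Atp5a1 at -0.19 and -0.18. Sdhc was lower in GN_water against Control_captopril at -0.26 ± 0.05 (SE; adjusted p = 0.0011), and had -0.13 ± 0.05 (SE; adjusted p = 0.09) in the other comparison. Ndufs1 was lower at -0.29 ± 0.05 (SE; adjusted p = 0.00096) in GN_water, and had -0.09 ± 0.05 (SE; adjusted p = 0.3) in GN_captopril. Ndufb8 was lower at -0.33 ± 0.07 (SE; adjusted p = 0.0095) in GN_captopril, and had -0.06 ± 0.07 (SE; adjusted p = 0.57) in GN_water.

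Each of these counts leaned on single libraries. In GN_captopril against Control_water, 34 members were lower without Control_water replicate 1 and 1, Ndufb8, without Control_water replicate 2. The count was also 8 without Control_water replicate 3, 9 without GN_captopril replicate 1, 5 without GN_captopril replicate 2 and 11 without GN_water replicate 1, and 1 when the 2 groups were fitted alone. In GN_water against Control_captopril, 23 were lower without GN_water replicate 3, and 8 without Control_captopril replicate 2. Of the 5 members lower in both, Cox6c lost its call there without Control_captopril replicate 2 or 3 and Ndufa9 without Control_captopril replicate 3. Without Control_water replicate 2, all 5, Sdha and Atp5a1 included, lost their call in GN_captopril against Control_water. Of the 17 lower in that comparison, 0 kept their call under each of the 22 alternatives. No member was higher in GN_water against Control_captopril with all libraries, and 1 was without GN_captopril replicate 2 or without Control_captopril replicate 2 or 3. In that comparison, library totals alone gave 4 members higher and 3 lower, and upper quartile scaling 3 and 6. In GN_captopril against Control_water, 0 were higher and 3 lower with library totals. The sum of leukocyte markers was 628 to 1182 CPM in GN_captopril and 1257 to 1826 in GN_water, against 177 to 258 in Control_captopril and 218 to 228 in Control_water.

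**Figure D3:**
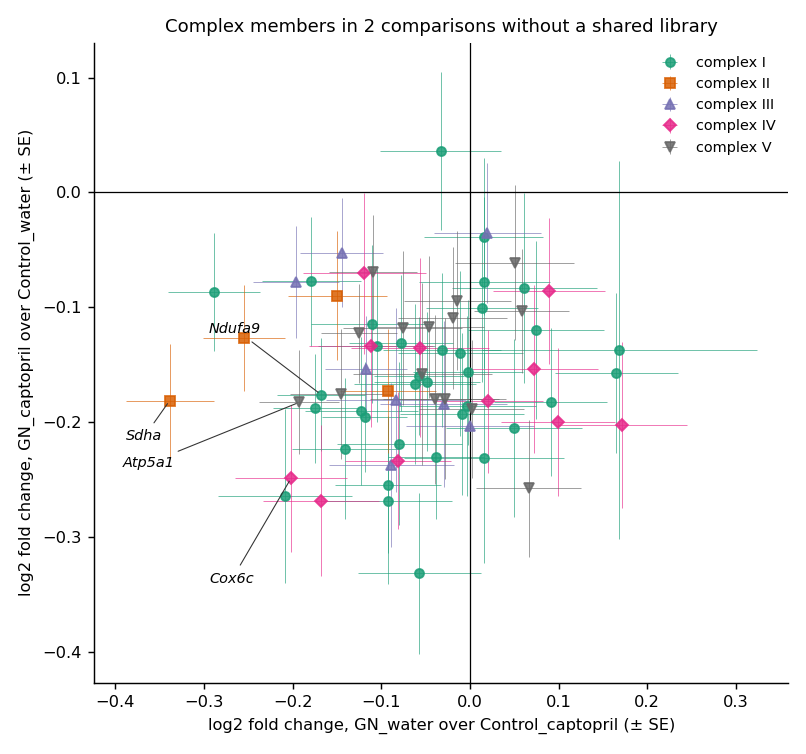
Log2 fold change of the 73 complex members in GN_water over Control_captopril (horizontal) and in GN_captopril over Control_water (vertical), each with its SE. Of these, 52 lie below 0 on both axes, and the 4 named genes were lower by the test in both.

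As a share of the summed CPM of all complex members, which no scaling between libraries can change, complex II and complex IV stood apart in GN_water. Complex II made up 8.05%, 8.05% and 7.92% in GN_captopril and 7.43%, 7.34% and 7.14% in GN_water, against 8.30%, 8.09% and 7.99% in Control_captopril and 8.28%, 7.77% and 7.95% in Control_water. The GN_water shares lay below those of every other library, and the GN_captopril shares fell within the range of the controls. Complex IV made up 17.01%, 17.57% and 17.44% in GN_captopril and 18.15%, 18.70% and 18.95% in GN_water, against 17.67%, 17.68% and 17.87% in Control_captopril and 17.30%, 18.11% and 17.52% in Control_water. The GN_water shares of complex IV were above those of every other library, though replicate 1 of GN_water exceeded replicate 2 of Control_water only narrowly. With 3 libraries against 3, an exact permutation test cannot go below p = 0.10, and none was made on these shares. The mean ratio of Sdha to Atp5b, also free of scaling, was 0.261 ± 0.00305 in GN_captopril and 0.259 ± 0.00446 in GN_water, against 0.3 ± 0.00848 in Control_captopril and 0.272 ± 0.0134 in Control_water (SD, n = 3 each).

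**Figure D4:**
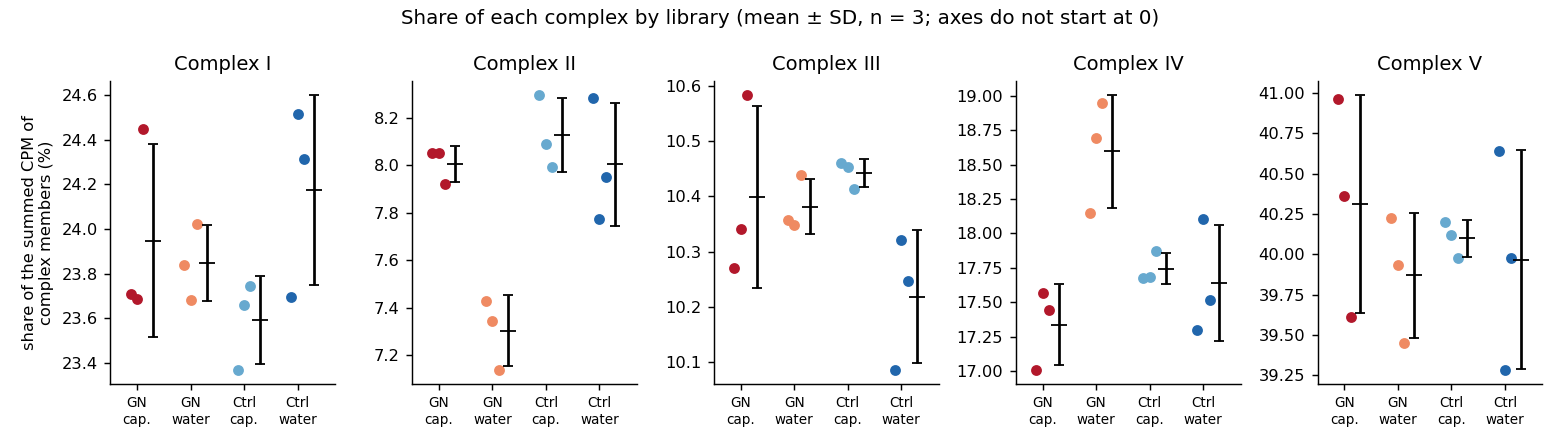
Share of each complex in the summed CPM of the 73 complex members, in percent, by library, with the mean and SD of each group (n = 3). Axes do not start at 0. GN_water lies lowest in complex II, at a mean of 7.30%, and highest in complex IV, at a mean of 18.6%.

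The captopril label, averaged over GN and control with the labels as given, came with 2 called members. Cox8a, a small subunit of complex IV, and Atp5d, the delta subunit of the ATP synthase head, were lower in the groups labelled captopril, at -0.19 ± 0.05 (SE; adjusted p = 0.046) and -0.16 ± 0.04 (SE; adjusted p = 0.039), and 0 members were higher. If the 2 control labels were exchanged, this average and the interaction described below would trade places by construction (up to a constant factor), while the GN average would not change. Whether any labels were exchanged was not tested. Over all genes tested, 3.34% were lower and 3.17% higher (6.51% either way). The count of 2 depended on single libraries: it was 8 without Control_water replicate 1, and 0 without either of the other Control_water replicates, without GN_captopril replicate 1 or 3, without Control_captopril replicate 1 or without any 1 GN_water library, and 1 without Control_captopril replicate 2 or 3. Cox8a measured 543, 618 and 519 CPM in GN_captopril and 555, 617 and 641 in GN_water, against 544, 541 and 525 CPM in Control_captopril and 615, 684 and 635 in Control_water. The Control_captopril libraries lay below all Control_water libraries, and the GN_captopril and GN_water libraries overlapped.

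The 4 comparisons that change only 1 label set Y-linked libraries against Xist libraries, so that the label and the markers cannot be told apart in them. In GN_water against Control_water 22 members were lower and 5 higher (23.9% and 27.4% of all genes, 51.2% either way). In GN_captopril against Control_captopril 37 were lower and 1 higher (19.3% and 20.5% of all genes, 39.8% either way). In GN_captopril against GN_water 23 were lower and 6 higher (25.5% and 19.6% of all genes, 45.1% either way), and in Control_captopril against Control_water 5 were lower and 8 higher (17.0% and 15.4% of all genes, 32.4% either way). With library totals alone the median of all genes moved by 0.20 in GN_water against Control_water, by -0.14 in GN_captopril against GN_water and by 0.11 in Control_captopril against Control_water, and the members' calls moved with it, to 3 lower and 40 higher, 59 lower and 1 higher, and 3 lower and 25 higher. With upper quartile scaling GN_water against Control_water had 14 lower and 9 higher, and with DESeq2 size factors GN_captopril against GN_water had 20 lower and 10 higher. The median of the complex members relative to all genes stayed at -0.07, -0.06 and 0.00 in these 3 comparisons under either scaling, nearly by construction. Single libraries moved these counts too. In GN_water against Control_water, 8 members were higher without Control_water replicate 2, and 3 without GN_water replicate 1 or 3. In GN_captopril against Control_captopril, 24 members were lower without GN_captopril replicate 1 or without Control_captopril replicate 2 or 3, and 23 without GN_captopril replicate 2. In GN_captopril against GN_water, 13 were lower and 10 higher without GN_water replicate 1, and 7 were lower without GN_water replicate 3. In Control_captopril against Control_water, 10 were lower without Control_water replicate 1.

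The disease effect differed between the treatment labels for 38 of the 82 members tested, by the interaction test. In GN_captopril and Control_water, the Y-linked libraries, 11 (13.4%) were relatively higher and 27 (32.9%) relatively lower than in GN_water and Control_captopril, the Xist libraries. Among all genes, 23.6% were higher and 27.1% lower (50.7% either way), so the members as a whole were called no more often than all genes. With library totals alone the median of all genes in this contrast shifted by -0.26 and the members split 4 higher to 58 lower, and with upper quartile scaling 6 higher to 31 lower. Without GN_water replicate 3, 16 were lower. The complex members' median relative to all genes was -0.01 under each of these scalings, nearly by construction.

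On the higher side were 3 subunits of the electron input module of complex I, Ndufv1, Ndufv3 and Ndufs1, while Ndufv2 of the same module was on the lower side at -0.40 ± 0.10 (SE; adjusted p = 0.0038). Ndufv1 had an interaction of 0.53 ± 0.07 (SE; adjusted p = 2.3e-05) on the log2 scale, with values in every library as given above. Ndufa10 measured 235, 222 and 219.6 CPM in GN_captopril and 205, 204 and 195 in GN_water, against 199, 218 and 226 CPM in Control_captopril and 264, 286 and 258 in Control_water. Ndufa10, an accessory subunit of the membrane arm, was highest in Control_water, and the GN_water libraries overlapped only Control_captopril replicate 1, with an interaction of 0.49 ± 0.08 (SE; adjusted p = 0.00029). Ndufv1 and Ndufa10 were higher under each of the 22 alternatives. Ndufv3, a small subunit of the input module, was at 0.52 ± 0.10 (SE; adjusted p = 0.00066) and Ndufs1 at 0.31 ± 0.07 (SE; adjusted p = 0.003), a call that Ndufs1 lost with library totals alone. Atp5b, Atp5d, Uqcrfs1, Ndufa1 and Ndufb4 were called higher at 0.19 to 0.29, and none of them was called with library totals alone. The lowest values of Atp5b, Atp5d and Uqcrfs1 over the alternatives were below 0, at -0.06, -0.04 and -0.04.

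On the lower side, Atp5g1 had an interaction of -0.72 ± 0.10 (SE; adjusted p = 3.2e-05). Atp5g1 measured 311, 296 and 310.1 CPM in GN_captopril and 415, 401 and 409.6 in GN_water, against 362, 413 and 409 CPM in Control_captopril and 291, 346 and 321 in Control_water. All GN_captopril and Control_water libraries of Atp5g1 lay below all GN_water and Control_captopril libraries. The mean ratio of Atp5g1 to Atp5g3, which encodes the same mature protein, was 0.461 ± 0.00768 in GN_captopril and 0.57 ± 0.0174 in GN_water, against 0.572 ± 0.0226 in Control_captopril and 0.447 ± 0.0135 in Control_water (SD, n = 3 each). Counts of Atp5g1 were not whole in 12 libraries and those of Atp5g3 in 11, as when reads are divided between near-identical copies. The source of these fractions was not tested, and both levels are uncertain. The same limit holds for other members with such counts. Among them were Ndufs1, Cox4i1, Atp5c1, Ndufv2 and Cox7a2l (12 libraries each), Atp5sl (10), Ndufv3 (9) and Ndufa5 (7).

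Cox6c and Cox7b of complex IV, Ndufa5 of complex I and Uqcrb of complex III were on the lower side too, at -0.57 ± 0.09 (SE; adjusted p = 0.00015), -0.53 ± 0.10 (SE; adjusted p = 0.00058), -0.55 ± 0.09 (SE; adjusted p = 0.00014) and -0.45 ± 0.09 (SE; adjusted p = 0.0007). Cox7b measured 309.9, 301 and 335 CPM in GN_captopril and 359, 360.4 and 400.2 in GN_water, against 399.6, 407 and 409 CPM in Control_captopril and 308, 367 and 319 in Control_water. Cox7b, an X-linked subunit, was lowest in GN_captopril and in Control_water replicates 1 and 3, and Control_water replicate 2 lay within the range of GN_water. Ndufa5 measured 85.4, 82.8 and 91.8 CPM in GN_captopril and 108, 107 and 109 in GN_water, against 113, 121 and 123 CPM in Control_captopril and 94.6, 108 and 101 in Control_water. Ndufa5 was lowest in GN_captopril, and Control_water overlapped GN_water. Of the associated proteins, Atp5s was higher at 0.63 ± 0.15 (SE; adjusted p = 0.0035) and Cox7a2l lower at -0.35 ± 0.09 (SE; adjusted p = 0.0078). No member of complex II was called in this contrast, with Sdha at 0.06 ± 0.07 (SE; adjusted p = 0.48) and Sdhc at 0.10 ± 0.07 (SE; adjusted p = 0.22). Sdhb, at 0.17 ± 0.08 (SE; adjusted p = 0.078), was called with DESeq2 size factors (0.20, adjusted p = 0.04 by edgeR). The mean ratio of Ndufv1 to Ndufa5, 2 subunits of the same complex, was 4.404 ± 0.192 in GN_captopril and 3.01 ± 0.0796 in GN_water, against 2.97 ± 0.113 in Control_captopril and 4.32 ± 0.173 in Control_water (SD, n = 3 each). The ratio was over 4 in every library with Y-linked transcripts and at most 3.10 in every library with Xist. The 2 genes were picked for their opposite interactions, which is this same contrast, so the separation was fixed by that choice and is a description.

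**Figure D5:**
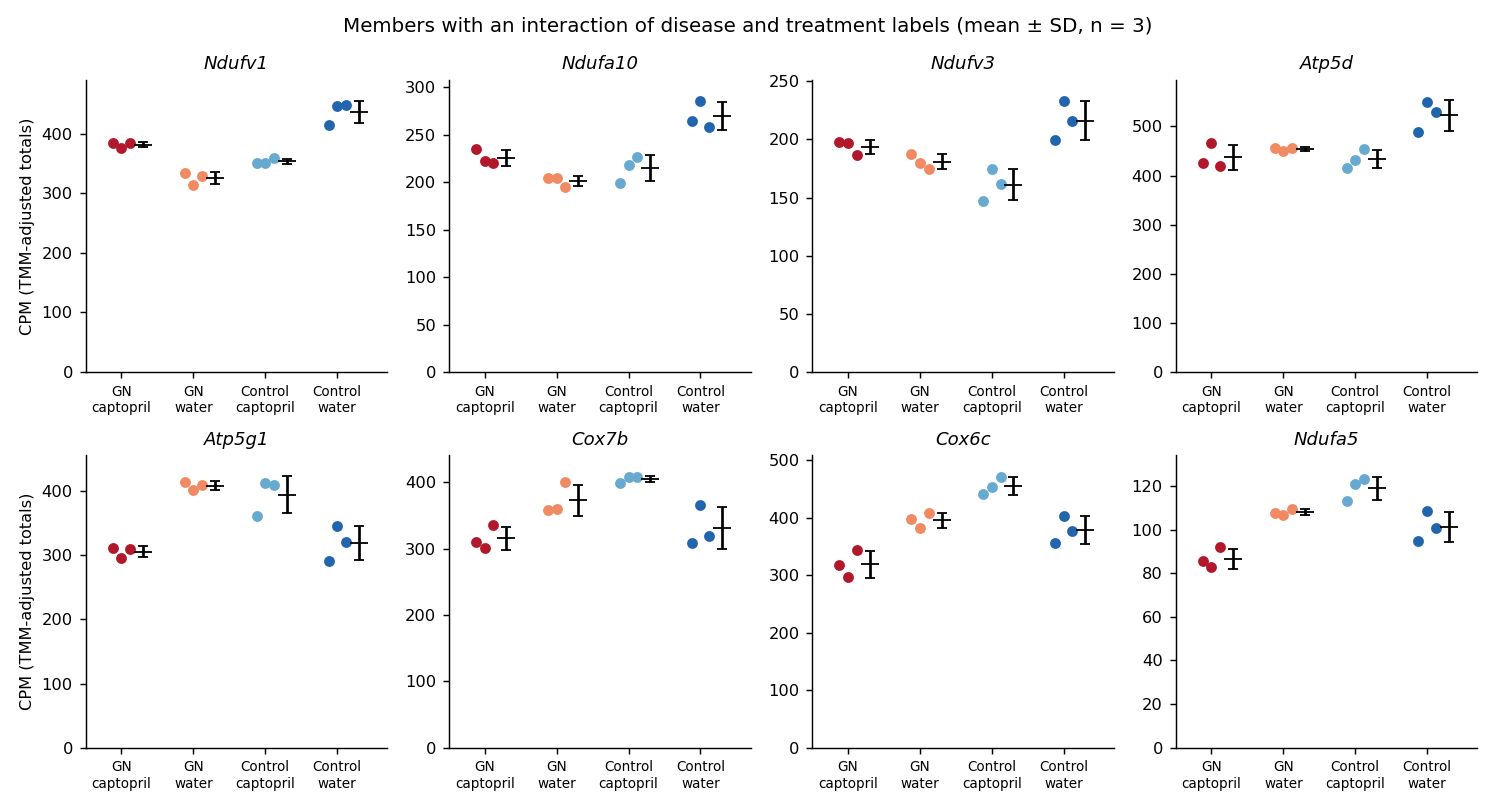
CPM of 4 members with a positive interaction (upper row) and 4 with a negative one (lower row) in each library, with the mean and SD of each group (n = 3). Atp5g1 lies at 296 to 311 CPM in GN_captopril and 401 to 415 in GN_water, against 362 to 413 in Control_captopril and 291 to 346 in Control_water.

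The promoter window of Atp5g1 is shown because its interaction was the lowest of any complex member. It lies at chr11:96075582-96075881 (minus strand) of GRCm38.p6 and held no match to the 4 motifs.
Atp5g1: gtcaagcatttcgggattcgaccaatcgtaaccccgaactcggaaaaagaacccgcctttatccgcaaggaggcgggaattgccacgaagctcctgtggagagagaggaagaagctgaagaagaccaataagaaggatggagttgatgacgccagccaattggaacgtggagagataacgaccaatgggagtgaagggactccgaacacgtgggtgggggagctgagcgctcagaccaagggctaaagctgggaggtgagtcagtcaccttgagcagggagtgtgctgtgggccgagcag

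The direction of the interaction went with transcript length among the complex members. Spearman's rho between GENCODE transcript length and the interaction was 0.34 over 73 genes, given as a description, against -0.01 over 14026 genes. Of the 27 members shorter than 700 bases, 1 was higher and 12 lower, while of the 17 longer than 1500 bases, 5 were higher and 2 lower, where 23.6% of all genes tested were higher and 27.1% lower. The calls over all members shifted with library totals alone to 4 higher and 58 lower, so these counts hold for TMM factors. Length also went with the GN average, where rho was -0.19 over the 73 members and -0.16 over all genes with a length. With TMM factors, 5 of the 27 short and 10 of the 17 long members were lower there, against 14.6% of all genes. In GN_water against Control_captopril rho was -0.30 (all genes -0.21). It had the other sign in GN_captopril against Control_water, at 0.17 (all genes -0.02). The genes share libraries and depth, and the cause of these relations was not tested.

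The tissue-restricted isoforms were low, and those known from striated muscle were lower in the Y-linked libraries. Cox7a1, the heart and skeletal muscle isoform of Cox7a2, had an interaction of -1.11 ± 0.16 (SE; adjusted p = 6.4e-05). Cox7a1 measured 9.37, 9.44 and 11.8 CPM in GN_captopril and 15.9, 14.97 and 15.2 in GN_water, against 13.9, 15.8 and 16.1 CPM in Control_captopril and 10.99, 11.8 and 9.22 in Control_water. Cox6b2, an isoform known from testis, was at -1.96 ± 0.20 (SE; adjusted p = 3.3e-06). Cox6b2 measured 3.59, 2.80 and 3.59 CPM in GN_captopril and 8.66, 7.65 and 7.12 in GN_water, against 7.40, 6.49 and 6.58 CPM in Control_captopril and 4.14, 3.64 and 4.64 in Control_water. Every GN_captopril and Control_water library of Cox6b2 and of Cox7a1 lay below every GN_water and Control_captopril library. Cox6a2 and Cox8b, both muscle isoforms, were called too, at -1.82 and -3.20, with every library under 4 CPM, and their calls were lost without both replicate 3 libraries that carry adrenal transcripts (Cox6a2) or without GN_water replicate 2 (Cox8b). The 12 striated muscle markers summed to 1.13 to 2.08 CPM in GN_captopril and 7.27 to 10.9 in GN_water, against 5.803 to 9.74 in Control_captopril and 1.21 to 3.49 in Control_water. The defining genes Ckm and Acta1 were at a mean of no more than 0.0931 CPM in any group. Fat cell markers summed to 48.4 to 443 CPM in GN_captopril and 80.5 to 282 in GN_water, against 118 to 247 in Control_captopril and 63.1 to 158 in Control_water. The part of these cells was not tested. Ndufa4l2 and Cox4i2, which hypoxia is known to raise, were not called in the GN average, at 0.16 ± 0.14 (SE; adjusted p = 0.44) and 0.47 ± 0.44 (SE; adjusted p = 0.45).

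Levels between members can be compared only per length, and on the scale of CPM per kilobase of GENCODE transcript the median was 536 in complex IV, 459.6 in complex V, 385 in complex III, 322 in complex II and 189 in complex I, over all libraries. Atp5b stood first at 1832 CPM per kilobase, followed by Cox8a at 1066 and Cox4i1 at 1060.4. The lowest complex members were Ndufb2 at 12.9 and Ndufs5 at 14.97. These values rest on 1 annotated transcript length per gene, which for Ndufb2 and Atp5g1 is over 4000 bases, so their order is approximate.

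Genes that work beside the complexes were followed as lists chosen with earlier results known, and their counts stand beside the 14.6% of all genes tested that were lower and the 16.3% that were higher in the GN average. Of 14 tricarboxylic acid cycle genes, 11 were lower in the GN average (median -0.16) and 0 higher. Suclg2 and Suclg1, subunits of succinyl-CoA ligase, the step that makes succinate, were at -0.27 ± 0.04 and -0.22 ± 0.03 on the log2 scale (adjusted p = 0.0002 and 0.00015). Of 16 genes for mobile electron carriers and coenzyme Q synthesis, 5 were lower (median -0.10), with Etfdh, which feeds electrons from fatty acid oxidation into coenzyme Q, at -0.24 ± 0.05 (adjusted p = 0.0016). Of 46 assembly factors tested, 9 were lower (median -0.06), a share near that of all genes. They included Tmem126b and Ndufaf4 of complex I assembly at -0.23 ± 0.05 and -0.21 ± 0.05 and Tmem70 of ATP synthase assembly at -0.14 ± 0.04, and with library totals alone Ndufaf4 and Tmem70 lost their calls (adjusted p = 0.08 and 0.19 by edgeR). No gene of these 3 lists was higher.

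Of 20 regulators of mitochondrial biogenesis, 7 were lower in the GN average (median -0.08) and 0 higher, against 14.6% and 16.3% of all genes tested. Ppargc1a, the coactivator that drives the programme, was at -0.39 ± 0.07 (adjusted p = 0.00064). Ppargc1a measured 62.6, 54.4 and 48.6 CPM in GN_captopril and 68.5, 70.8 and 72.2 in GN_water, against 98.9, 90.3 and 88.5 CPM in Control_captopril and 81.5, 69.7 and 65.2 in Control_water. The Control_captopril libraries were highest and the GN_captopril libraries lowest, and GN_water overlapped Control_water. Esrrg, an oestrogen-related receptor, was at -0.28 ± 0.05 (adjusted p = 0.002), Tfb2m, a factor of mitochondrial transcription, at -0.21 ± 0.04 (adjusted p = 0.00086), and Gabpa, an ETS factor also called NRF2, at -0.18 ± 0.05 (adjusted p = 0.013). Esrra, Tfam and Nrf1 were not called, at 0.00 ± 0.04, 0.01 ± 0.04 and 0.16 ± 0.07, although with library totals alone Nrf1 was called higher (0.23) and Gabpa lost its call (-0.11, adjusted p = 0.10 by edgeR).

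The genes outside the membership whose log2 CPM over the 12 libraries was most like the mean of the called complex members were Etfb (Pearson r = 0.97), a subunit of the electron transfer flavoprotein, Chchd1 (0.93), a protein of the mitochondrial ribosome, and Ppp4r1l-ps (0.92), a pseudogene. All 3 were lower in the GN average, the calls of Etfb and Chchd1 not holding with library totals alone, at -0.18 ± 0.04, -0.20 ± 0.05 and -0.39 ± 0.10. The 12 libraries share groups, so the correlations hold the group differences too. The mean was built from members called lower in this same average. That the 3 genes were lower in it is therefore partly fixed by that choice and is a description.

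Promoter windows of 300 bases were in the RefSeq table for 62 members and 27025 genes in all. The NRF1 motif GCATGCGC, searched on both strands, was in 10 of the 62 (16.1%) and in 3.05% of all windows. The YY1 motif AAGATGGCG was in 7 (11.3%) and in 1.64% of all, the ETS motif CCGGAAGT in 5 (8.06%) and in 4.31%, and the ERR motif TCAAGGTCA in 2 (3.23%), Sdhd and Atp5g3, and in 0.466%. Uqcr11 held both the NRF1 and the ETS motif. A match describes these letters in this window and no more.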

How the data were processed

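Per the labels' protocols, RNA was extracted with Trizol and RNeasy and sequenced as stranded mRNA. The submitters' processing notes name Bowtie2, Partek and mm10, with no version or role (not given in the sources used here). For each gene symbol and library, the authors deposited an estimated count and an RPKM value; the RPKM of complex members implied a length of 1.06 times the genomic span (median), so RPKM was not compared between genes.

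Counts were rounded (16 members had counts that were not whole) and tested with edgeR 4.0.16 in R 4.3.3: filterByExpr (minimum count 10, total 15), TMM factors, a quasi-likelihood fit over the 4 groups, 9 comparisons, Benjamini-Hochberg adjustment over 14618 genes, threshold 0.05. CPM was computed with TMM factors from library totals of 14173414 to 22842776 counts. Levels per kilobase and relations with length used GENCODE basic transcript lengths, from the principal isoform where marked and otherwise the longest coding transcript. DESeq2 1.42.0, limma 3.58.1 on log2(RPKM + 0.1), other scalings and left-out libraries were alternatives. The fit was tested on simulated data.

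Members and lists were chosen with earlier results of these data known. Genes named by rule were, in each complex, the 4 with the smallest and the 2 with the largest adjusted p in the GN average and the 2 smallest in the captopril average and the interaction; all restricted isoforms and associated proteins; a fixed list of core subunits; 3 genes per companion list with 5 regulators; and the 3 genes most alike. Other members in the text were named after their values were seen. Some items are not reported here.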

Additional observations from a re-analysis of the deposited data

Results flagged for a closer look

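The disease effect differed between the treatment labels, by the interaction test in edgeR's quasi-likelihood fit, for 24 of the 47 members named by rule. Of all 14618 genes tested, 50.7% were called in this contrast, so the count is near the share of all genes. The rule also took 2 members per complex by their smallest p in this contrast, so part of the count was fixed by that choice. Each value is the log2 fold change of GN_captopril over Control_captopril minus that of GN_water over Control_water. It was negative for 16 members: Cox8b (-3.20), Cox6b2 (-1.96), Cox6a2 (-1.82), Cox7a1 (-1.11), Atp5g1 (-0.72), Cox6c (-0.57), Ndufa5 (-0.55) and Cox7b (-0.53) had the lowest values, followed by Uqcrb (-0.45), Atp5h (-0.43), Ndufv2 (-0.40), Cox7a2l (-0.35), Uqcr11 (-0.32), Atp5o (-0.31), Cox4i1 (-0.24) and Ndufa11 (-0.23). It was positive for 8 members: Atp5s (0.63), Ndufv1 (0.53), Ndufv3 (0.52), Atp5sl (0.32), Ndufs1 (0.31), Atp5d (0.22), Uqcrfs1 (0.21) and Atp5b (0.19). With library totals alone Atp5sl, Ndufs1, Atp5d, Uqcrfs1 and Atp5b were not called, and the lowest values of Atp5d, Uqcrfs1 and Atp5b over the alternatives were -0.04, -0.04 and -0.06. This contrast is also the Y-linked libraries minus the Xist libraries, and the 2 readings cannot be told apart. No sample was tested for standing apart, since each group holds 3 libraries.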

How the results depend on the processing

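Each gene named by rule was followed in the comparison that named it. There, 1559 of 1716 values kept their side of the threshold, 124 were no longer called and 30 became called in the same direction. A value that changed sign while called in neither fit was counted among the 1559. Another 3 changed sign and became called: the interaction of Sdhc under limma on RPKM was -0.15, -0.14 and -0.15. Over all 38 members called in the interaction, 35 kept their sign under every alternative, and Atp5b, Atp5d and Uqcrfs1 did not (lowest -0.06, -0.04 and -0.04). Below, limma means log2(RPKM + 0.1), log2(RPKM + 1) and log2(RPKM + 0.1) without a filter, in that order, and the causes were not tested beyond the shift that scaling gives to all genes. In the GN average, 9 members were lower with library totals, 16 with upper quartile scaling and 9, 10 and 8 with limma. By complex, totals gave 4, 2, 0 and 1 in I, II, III and V, upper quartile 8, 2 and 1 in I, II and III, and limma 4, 5 and 4 in I, 2 each in II, 0 each in III and 1 each in V, with 1 in IV without a filter. In GN_water against Control_captopril, lower members were 3 (totals), 6 (upper quartile), 20 (DESeq2), and 4, 4 and 3 (limma), and higher ones 4, 3, then 3, 4 and 1 (limma), and 1 each with a replicate block, without the adrenal pair and with the groups alone. In GN_captopril against Control_water, lower members were 3, 5, 27 (DESeq2), 2, 1 and 0 (limma), 9 without the adrenal pair and 1 with the groups alone. For captopril, lower members were 1 (DESeq2 size factors), 4 (DESeq2), 1, 1 and 0 (limma) and 0 without the adrenal pair, with 1 higher by DESeq2. For the interaction, lower members were 58 (totals) and 58, 58 and 55 (limma), and higher ones 4, 6 (upper quartile), 4, 4 and 2 (limma). In GN_water against Control_water, lower members were 3, 14 (upper quartile), 3, 4 and 4 (limma), and higher ones 40, 9, 33, 34 and 30. In GN_captopril against Control_captopril, higher members were 2 by DESeq2 and 0 by limma without a filter. In GN_captopril against GN_water, lower members were 59 (totals) and 54, 56 and 55 (limma), and higher ones 10 (size factors), 1, 11 (DESeq2), 2, 2 and 2 (limma) and 10 with the groups alone. In Control_captopril against Control_water, lower members were 3, 8 (DESeq2), 3, 3 and 3 (limma), and higher ones 25, 21, 22 and 19.

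Leaving out each library gave, for lower members, 23 to 47 in the GN average (complex I 11 to 21, II 3 to 4, III 2 to 7, IV 3 to 5, V 3 to 8), 8 to 23 in GN_water against Control_captopril, 1 to 34 in GN_captopril against Control_water, 0 to 8 for captopril, 16 to 30 for the interaction, 18 to 29 in GN_water against Control_water, 23 to 44 in GN_captopril against Control_captopril, 7 to 33 in GN_captopril against GN_water and 4 to 10 in Control_captopril against Control_water. For higher members the ranges were 0 to 0, 0 to 1, 0 to 0, 0 to 1, 8 to 13, 3 to 8, 1 to 1, 4 to 10 and 6 to 10 in the same order. With a replicate block, 32 members were lower in the GN average. Over 18 pairs of libraries with the same number, deviations correlated at -0.18 to 0.25, 7 over 0.1, and 5 of 12 libraries correlated best with their own number, so the numbers were not taken to pair libraries.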
